A study of Mus musculus with 12 samples.

Results

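The TNF ligand and receptor superfamilies were followed in the mouse thymus at 2 weeks (2W), 6 weeks (6W) and 3 months (3M) of age. Members were all genes of the deposited mRNA table whose symbol starts with Tnfsf or Tnfrsf, together with Tnf, Lta, Ltb, Ltbr, Cd40, Cd40lg, Fas, Fasl, Cd27, Cd70, Eda, Edar, Eda2r and Ngfr. This rule gave 46 of the 22843 genes, 19 ligands and 27 receptors, with 135 transcripts among them. The mice were wild type C57BL/6 males with no treatment named at any age, and whole thymus was sequenced, with 2 biological replicates (libraries) at each of the 3 ages. The comparisons follow the period of growth (6W against 2W), the early decline (3M against 6W) and the whole span (3M against 2W), which share libraries with each other.

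TNF ligands are mostly membrane proteins that act as trimers on receptors of neighbouring cells, and some are also shed or secreted. Receptors with a death domain, such as Fas, can start apoptosis through FADD and caspase-8. Many receptors of the family, though not the decoys, recruit TRAF adaptors and activate NF-kB. In the thymus, RANKL (Tnfsf11), CD40 ligand and lymphotoxin from thymocytes and lymphoid cells act on RANK, CD40 and the lymphotoxin beta receptor of medullary epithelial cells and so shape the medulla in which self-reactive T cells are removed.

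The libraries held 16519753 to 22553481 estimated counts each. The tissue carried its own markers at every age: 8 genes of double-positive (DP) thymocytes, Rag1 and Dntt among them, summed to 14641 to 16379 CPM (counts scaled to the normalised library size) at 2W, 13519 to 13539 at 6W and 11728 to 11754 at 3M, with 5 of the 8 lower from 2W to 3M by adjusted p (3.12% of all genes), and 8 genes of the cortical epithelium to 1709 to 2202 CPM in a library. Markers of several cell types moved with age in these libraries. The summed level of 5 cycling genes was 3501 to 3506 CPM at 2W, 2813 to 2853 at 6W and 1849.9 to 2367 at 3M, whereas that of 7 adipocyte genes was 39.9 to 40.3, 139.5 to 145 and 167 to 322 CPM, highest in 3M replicate 1. In bulk RNA of this kind, fewer cells of a type and less RNA per cell cannot be told apart. P-values rest on 2 libraries per age, and an exact permutation test of 2 against 2 cannot go below 0.333.

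Promoter sequences are shown for the 6 members with an adjusted p under 0.05 in any comparison, and for Ltb, the ligand with the highest level. They are the 250 bases before the RefSeq start site in GRCm38.p6, written 5′ to 3′ on the strand of the gene. Of the 4 promoter motifs searched, those found are in capitals.
Fasl, chr1:161788496-161788745, minus strand: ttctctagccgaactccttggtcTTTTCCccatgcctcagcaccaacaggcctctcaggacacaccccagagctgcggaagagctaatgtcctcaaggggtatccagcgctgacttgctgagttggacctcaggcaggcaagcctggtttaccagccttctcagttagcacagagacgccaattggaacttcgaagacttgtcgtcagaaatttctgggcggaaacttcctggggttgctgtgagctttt
Tnfsf8, chr4:63861285-63861534, minus strand: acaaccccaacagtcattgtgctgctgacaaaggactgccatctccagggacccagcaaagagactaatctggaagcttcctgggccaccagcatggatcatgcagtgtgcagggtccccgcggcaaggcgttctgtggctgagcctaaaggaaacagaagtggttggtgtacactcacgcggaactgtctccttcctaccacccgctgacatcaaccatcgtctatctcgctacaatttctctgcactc
Eda, chrX:99975356-99975605, plus strand: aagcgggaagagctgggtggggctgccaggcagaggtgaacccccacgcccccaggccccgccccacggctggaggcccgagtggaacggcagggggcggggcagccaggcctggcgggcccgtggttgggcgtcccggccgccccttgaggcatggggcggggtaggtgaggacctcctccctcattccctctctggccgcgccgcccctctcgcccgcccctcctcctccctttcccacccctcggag
Tnfrsf8, chr4:145315165-145315414, minus strand: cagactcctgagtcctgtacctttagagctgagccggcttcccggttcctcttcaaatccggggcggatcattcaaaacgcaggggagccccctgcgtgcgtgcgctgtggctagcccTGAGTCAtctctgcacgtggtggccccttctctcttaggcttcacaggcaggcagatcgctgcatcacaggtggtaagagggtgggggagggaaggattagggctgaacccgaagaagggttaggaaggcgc
Tnfrsf12a, chr17:23677450-23677699, minus strand: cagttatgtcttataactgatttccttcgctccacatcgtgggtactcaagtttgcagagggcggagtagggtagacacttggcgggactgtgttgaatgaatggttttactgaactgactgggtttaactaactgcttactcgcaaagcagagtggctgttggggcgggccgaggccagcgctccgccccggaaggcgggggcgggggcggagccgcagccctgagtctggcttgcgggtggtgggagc
Tnfrsf25, chr4:152115684-152115933, plus strand: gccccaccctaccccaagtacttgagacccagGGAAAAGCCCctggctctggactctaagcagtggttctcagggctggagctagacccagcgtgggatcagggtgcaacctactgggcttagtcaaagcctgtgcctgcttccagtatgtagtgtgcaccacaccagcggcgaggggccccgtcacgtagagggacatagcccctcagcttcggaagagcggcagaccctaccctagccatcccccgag
Ltb, chr17:35194257-35194506, plus strand: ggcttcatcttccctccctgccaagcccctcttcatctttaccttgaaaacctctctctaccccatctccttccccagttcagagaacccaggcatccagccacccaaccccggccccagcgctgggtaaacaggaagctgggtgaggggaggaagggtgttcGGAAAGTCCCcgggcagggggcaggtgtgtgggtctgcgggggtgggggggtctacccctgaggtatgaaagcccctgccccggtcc
Motifs were searched on both strands of windows that also hold the 50 bases after the start site. RefSeq gave 40 such windows for 36 of the 46 members. The NF-kB letters, GGG and TTTCC with any 2 bases between, were in 3 of the 40 member windows (7.5%), those of Ltb, Tnfrsf9 and Tnfrsf25, and in 1.63% of all 32851 windows. In Ltb they start 87 bases before the start site, on the reverse strand. The NFAT core letters GGAAAA were in 13 member windows (32.5%), Fasl among them at 227 bases before the start on the reverse strand, and in 23.4% of all windows. The AP-1 letters TGANTCA were in 7 (17.5%), including Tnfrsf8 at 132 bases before the start, against 7.81% of all windows. TATAAA was in 7 (17.5%), among them Tnf and Lta, against 13.6%. In Tnfrsf25 the NF-kB and NFAT letters overlap, starting at the same base, 218 before the start site. The windows of Tnfsf8, Eda and Tnfrsf12a held none of the 4 motifs. A further window of Tnfrsf25, with none of them, is not printed. A match describes the letters only.

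Levels per length were read from the deposited FPKM (fragments scaled to transcript length and library size), summed over the transcripts of a gene. Mean FPKM was over 1 in 30 of the 46 members and over 10 in 9. Cd27, the costimulatory receptor carried by thymocytes and T cells, had the highest level, at 87.7 and 75.9 FPKM at 2W, 90.0 and 98.4 at 6W, and 63.6 and 84.3 at 3M. Ltb, the membrane-anchored lymphotoxin subunit, came next at 44.2 and 32.3, then 60.1 and 63.1, then 36.6 and 50.2 FPKM, and Tnfrsf1a, the widely expressed TNF receptor with a death domain, followed at 36.0 to 48.9 FPKM. The ranges of Ltb and Tnfrsf1a overlap, so that their order is not beyond the spread between libraries. Fas and Tnfrsf14 (HVEM, a receptor of LIGHT) had means of 28.2 and 25.8 FPKM, also with overlapping ranges. Tnfrsf13b (TACI, a receptor of BAFF and APRIL), Tnfrsf1b (the second TNF receptor), Tnfrsf9 (4-1BB) and Tnfrsf18 (GITR) had means of 15.7, 13.3, 11.3 and 10.7 FPKM.

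Apart from Ltb, no ligand reached 10 FPKM. Cd40lg, the T cell ligand of CD40, stood at 6.77 to 7.80 FPKM and Tnfsf10 (TRAIL) at 3.72 to 7.01. The median of the mean FPKM was 1.03 over the 19 ligands and 4.20 over the 27 receptors. The 2 lowest members were Tnfsf18, the GITR ligand, at a mean of 0.183 FPKM and Eda2r at 0.240. Among 27 listed ligand and receptor pairs, the receptor had the higher FPKM in all 6 libraries in 17, the ligand in 5, and 5 were mixed. The gap was wide for CD70 and CD27, at 0.355 to 0.400 against 74.0 to 94.2 FPKM in the means of the ages. Pairs with the ligand above in all 6 libraries were Ltb with Ltbr, Cd40lg with Cd40, Tnfsf10 with Tnfrsf10b and with the soluble decoy Tnfrsf11b, and Tnfsf13 (APRIL) with Tnfrsf17 (BCMA).

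**Figure D1:**
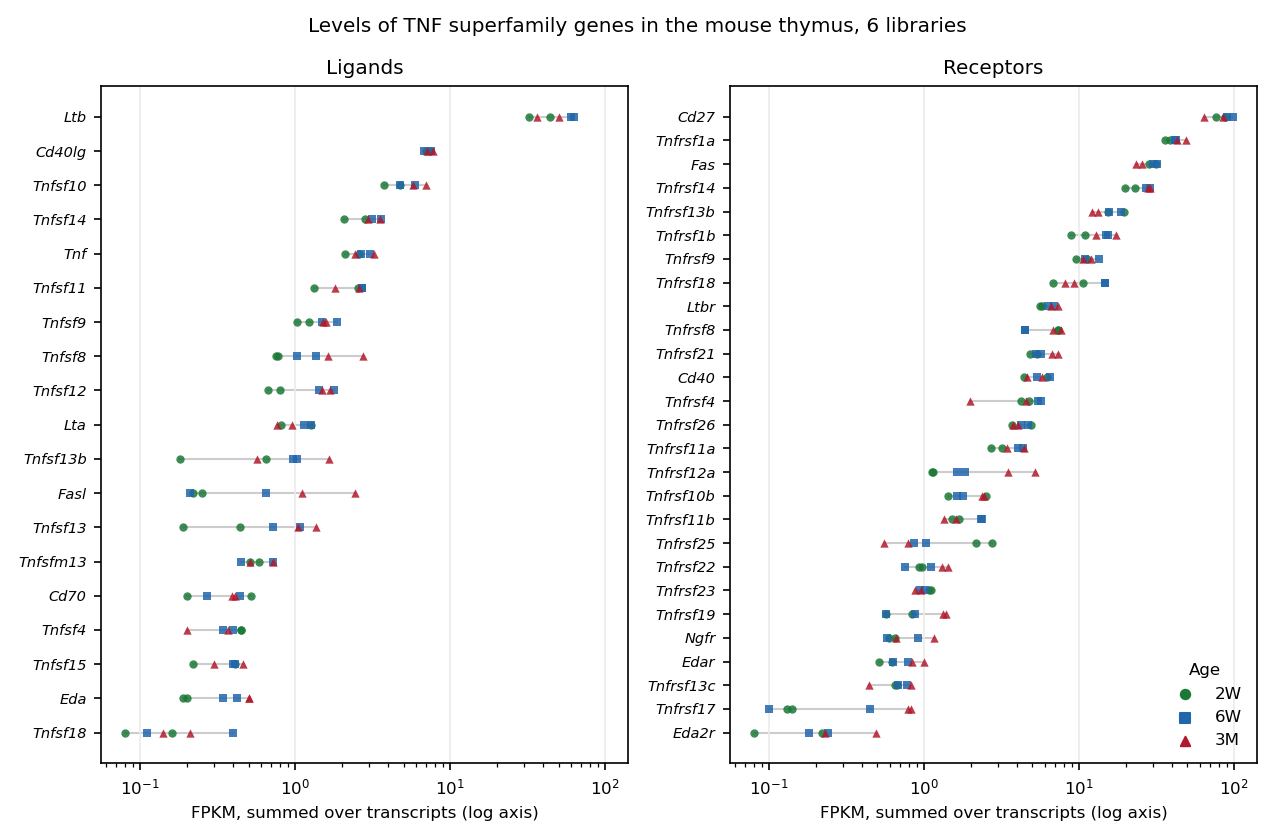
FPKM of each member in the 6 libraries on a log axis, ligands on the left and receptors on the right, ordered by their mean. Circles are 2W, squares 6W and triangles 3M, and the grey line spans the lowest to the highest library. Cd27 and Ltb lead their panels, and Fasl, Tnfrsf12a, Tnfsf8 and Tnfrsf25 have ages that stand apart.

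Tests across ages were run with edgeR on all genes, and 44 members passed the filter on low counts, 17 ligands and 27 receptors. The others, Cd70 (CD27 ligand) and Tnfsf18, held 3 to 9 and 3 to 20 counts per library and were not tested. Calls were made by the study's threshold (p under 0.05 before adjustment, and a log2 fold change beyond 1 in either direction) and by a Benjamini-Hochberg adjusted p under 0.05 over the 14806 genes tested. Between 2W and 6W, 3 of 44 members passed the study's threshold, against 5.34% of all genes: Tnfsf12 and Tnfsf13 higher (4.46% of all genes were) and Tnfrsf25 lower (0.878%). By adjusted p, 1 of 44 was called, Tnfrsf8, against 1.74% of all genes, of which 1.48% were higher and, like Tnfrsf8, 0.263% lower. Before adjustment, 8 of 44 had a p under 0.05, against 18.8% of all genes. Both 6W libraries lay above both 2W libraries in 16 members (28.1% of all genes) and below them in 4 (29.8%).

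Between 6W and 3M, 2 members passed the study's threshold (2.13% of all genes), Fasl and Tnfrsf12a, both higher (1.3% of all genes were, and 0.831% lower). No member had an adjusted p under 0.05 there in edgeR (0.00675% of all genes, which is 1 gene), 11 had a p under 0.05 before adjustment (14.3% of all genes), and DESeq2 called 1 member, against 2.5% of the genes to which it gave an adjusted p. Both 3M libraries lay above both 6W libraries in 12 members (25.9% of all genes) and below them in 12 (23.3%).

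Over the whole span from 2W to 3M, 7 of 44 members passed the study's threshold, against 9.36% of all genes. Fasl, Tnfsf8, Tnfsf13, Eda, Tnfrsf12a and Tnfrsf17 were higher at 3M (7.68% of all genes) and Tnfrsf25 was lower (1.68%). Fasl and Tnfrsf17 passed the filter on low counts only with their 3M libraries, so that their being tested depended on the rise. Without the filter both still passed the study's threshold from 2W to 3M (log2 2.53 and 2.41), as did Fasl from 6W to 3M (2.28). By adjusted p, 5 of 44 were called, against 11% of all genes: Fasl, Tnfsf8, Eda and Tnfrsf12a higher (7.92%) and Tnfrsf25 lower (3.12%). Before adjustment, 15 of 44 had a p under 0.05, against 27.3% of all genes. Both 3M libraries lay above both 2W libraries in 19 members (27.7% of all genes) and below them in 6 (24%). The median log2 fold change was 0.40 over the 17 ligands tested and 0.14 over the 27 receptors, beside -0.03 over all genes tested. From 2W to 6W these medians were 0.39, 0.12 and -0.01, and from 6W to 3M they were 0.01, 0.00 and 0.02.

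**Figure D2:**
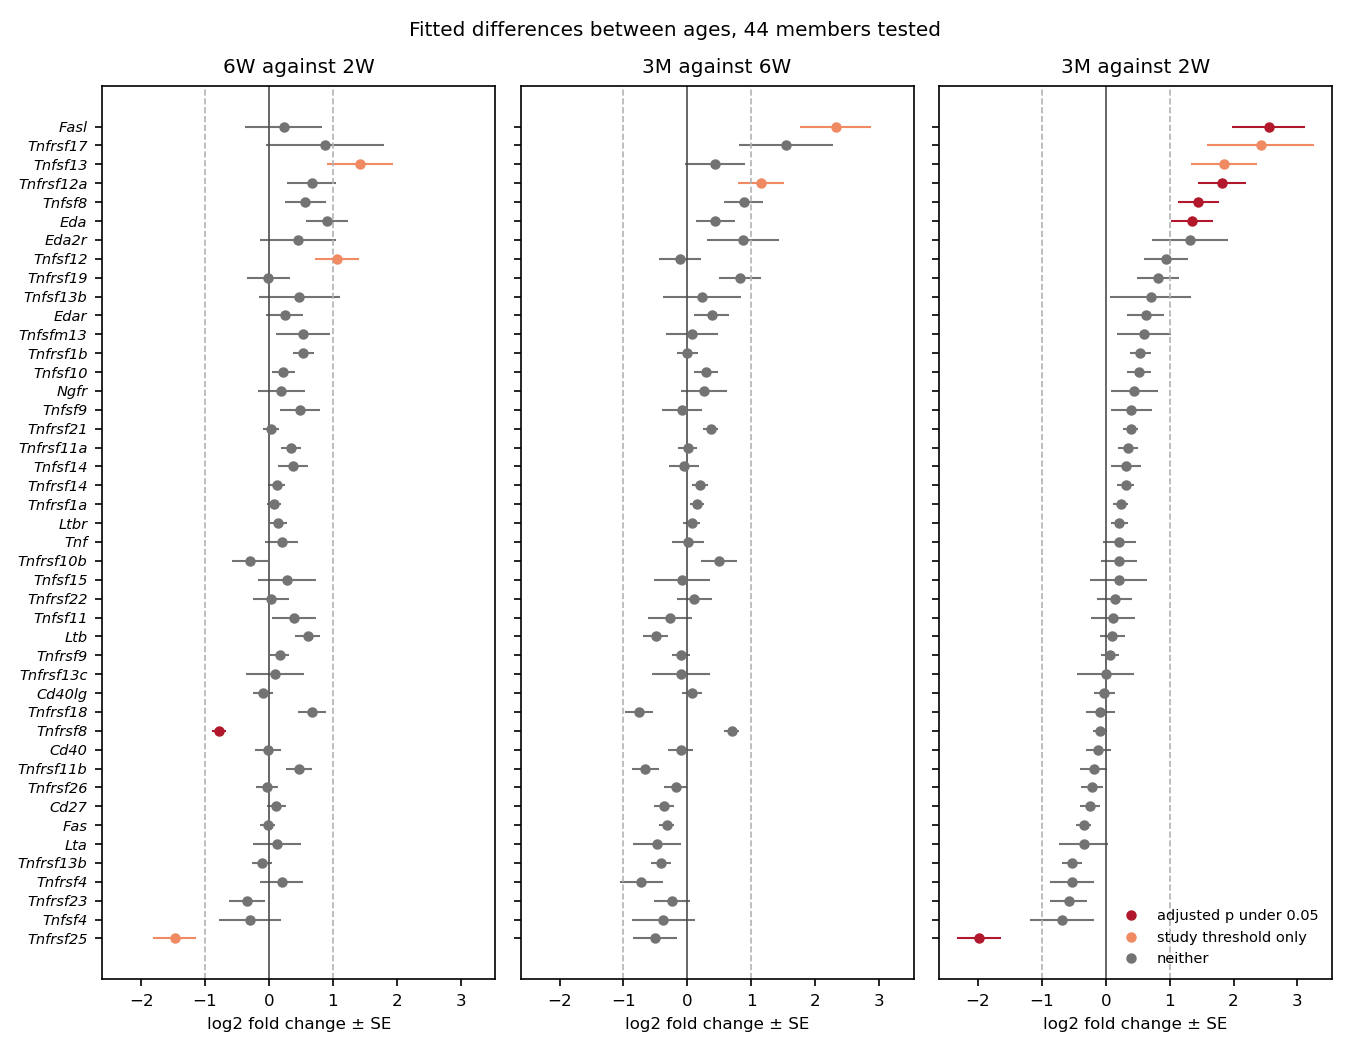
Fitted log2 fold change (x axis) with its standard error for the 44 members tested (y axis), in the 3 comparisons. Dark red marks an adjusted p under 0.05, orange the study's threshold only, and dashed lines a log2 fold change of 1 in either direction. Fasl is at the top and Tnfrsf25 at the bottom of the 3M against 2W panel.

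Of the death ligands, Fasl, the ligand of Fas with which cytotoxic T and NK cells kill, rose late. Its level was 0.443 and 0.490 CPM at 2W, 0.339 and 0.750 at 6W, and 3.67 and 1.88 at 3M. The 2W and 6W libraries overlapped, and both 3M libraries were above all of them. The difference was 5.85-fold from 2W to 3M (log2 fold change 2.55 ± 0.57, SE; edgeR adjusted p = 0.0382) and 4.99-fold from 6W to 3M (2.32 ± 0.55; adjusted p = 0.227, past the study's threshold only). Both stayed past the study's threshold in every alternative tried. The adjusted p of 3M against 2W ranged from 0.0117 in DESeq2 to 0.164 without 2W replicate 1, and was under 0.05 in 4 of 13 alternatives. With 1 library left out it was under 0.05 only without 3M replicate 2. With 1 library left out, the log2 fold change from 6W to 3M ranged from 1.77 without 3M replicate 1 to 3.00 without 6W replicate 2. The receptor Fas had 46.9 and 50.8 CPM at 2W, 49.1 and 47.1 at 6W and 40.8 and 36.2 at 3M (3M against 2W log2 -0.34 ± 0.12, edgeR adjusted p = 0.113). Both 3M libraries were the lowest for Fas, but it passed neither threshold in any comparison. The summed markers of DP thymocytes, which carry Fas, were also lowest at 3M, with most of the sum in Rag1. By adjusted p, 5 of the 8 were lower at 3M than at 2W (3.12% of all genes). Dntt and Cd8b1 overlapped between these ages (log2 -0.02 ± 0.09 and -0.24 ± 0.17). The part of DP thymocytes in the Fas values was not tested.

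TRAIL (Tnfsf10), the other death ligand, had 20.9 and 26.6 CPM at 2W, 30.4 and 25.2 at 6W and 38.0 and 30.1 at 3M. The 3M libraries were above the 2W libraries, but the difference was not called (log2 0.52 ± 0.19, edgeR adjusted p = 0.132). Its receptor Tnfrsf10b stood at 8.98 and 5.09, 6.01 and 5.47, and 8.36 and 7.84 CPM, with the 2W libraries spanning those of the later ages. The decoy TRAIL receptors Tnfrsf22 and Tnfrsf23 and the neighbouring Tnfrsf26 lie side by side on chromosome 7 and passed no threshold in any comparison.

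Markers of cytotoxic and innate lymphocytes also changed with age. The list of 6 NK, NKT and innate lymphoid genes summed to 17.5 to 20.9 CPM at 2W, 33.0 to 37.6 at 6W and 45.5 to 52.7 at 3M, with Klrb1c, Nkg7 and Zbtb16 higher at 3M than at 2W by adjusted p, 3 of 5 tested (7.92% of all genes). The sum was already higher at 6W, when Fasl overlapped 2W. None of the 6 was at 0 in any library. The NK receptor gene Ncr1, too low to test, had 0.443 and 0.552 CPM at 2W, 0.291 and 0.309 at 6W, and 0.180 and 0.403 at 3M. Fasl was also highest in 3M replicate 1, the library with the highest summed adipocyte markers. The sum of the 6 lymphoid genes was lower in that library (45.5 CPM) than in 3M replicate 2 (52.7 CPM). The part of either list in the Fasl values was not tested.

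Among the costimulatory ligands, Tnfsf8 (CD30 ligand) rose at 3M. It had 3.29 and 3.19 CPM at 2W, 5.48 and 4.15 at 6W, and 11.2 and 6.54 at 3M. The 3 ages do not overlap and stand in the order of age. From 2W to 3M it was 2.73-fold higher (log2 1.45 ± 0.32, edgeR adjusted p = 0.0347), whereas the steps of 0.57 ± 0.32 and 0.88 ± 0.31 passed no threshold. The adjusted p was under 0.05 in 6 of 13 alternatives, and over 0.05 without any 1 library other than 3M replicate 2 (up to 0.136). As with Fasl, 3M replicate 1 was the higher library. Tnfsf9 (4-1BB ligand) and Tnfsf4 (OX40 ligand) had log2 fold changes of 0.40 ± 0.32 and -0.68 ± 0.50 over the same span and were not called.

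The receptor of CD30 ligand, Tnfrsf8 (CD30), followed another course. Its level was 27.6 and 27.1 CPM at 2W, 15.7 and 16.1 at 6W and 24.5 and 26.8 at 3M. Both 6W libraries lay below all 4 others. It was 1.72-fold lower at 6W than at 2W (log2 -0.78 ± 0.12, edgeR adjusted p = 0.0365), and the difference from 6W to 3M was 0.69 ± 0.12 (edgeR adjusted p = 0.190; DESeq2 adjusted p = 0.0146). Most of its counts (74.5%) were in 1 transcript assembled by the authors, TCONS_00087391, with 271 and 442 counts at 2W, 260 and 200 at 6W and 342 and 402 at 3M. The annotated ENSMUST00000030339 held 165 and 0, 51 and 159, and 66 and 197 counts. Without assembled transcripts the log2 fold change from 2W to 6W was -0.01, and the adjusted p was also above 0.05 without either 2W or either 6W library (log2 -0.76 to -0.79) and with a replicate block (-0.78, edgeR adjusted p = 0.108).

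The other costimulatory receptors were not called. Cd27 had 135 and 118 CPM at 2W, 130 and 143 at 6W and 93.3 and 120 at 3M, with the lowest value in 3M replicate 1 (3M against 6W log2 -0.36 ± 0.15). Tnfrsf18 (GITR) was highest in both 6W libraries, at 14.0 and 8.95, 18.2 and 18.3, and 10.2 and 11.4 CPM. Its differences of 0.67 ± 0.22 and -0.75 ± 0.22 had edgeR adjusted p-values of 0.188 and 0.255. Tnfrsf9 stood at 14.5 to 18.4 CPM in the 6 libraries, and Tnfrsf4 (OX40), the neighbour of Tnfrsf18 on chromosome 4, at 2.53 to 6.49 CPM. The 4 regulatory T cell genes, listed because these cells carry GITR and OX40 in the thymus, summed to 300.5 to 325 CPM at 2W, 271 to 277 at 6W and 279 to 387 at 3M. Ikzf2 and Il2ra, which other thymocytes also carry, made up most of this sum. Foxp3, which defines the cells, had 1.71 and 2.58, 3.15 and 3.31, and 1.62 and 1.61 CPM, highest in both 6W libraries like GITR but not called (3M against 6W log2 -0.99 ± 0.32, edgeR adjusted p = 0.276). From 6W to 3M the log2 fold changes of Ikzf2, Il2ra and Ctla4 had the opposite sign (0.20 ± 0.18, 0.52 ± 0.14 and 0.06 ± 0.21). The part of regulatory T cells in the GITR values was not tested.

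**Figure D3:**
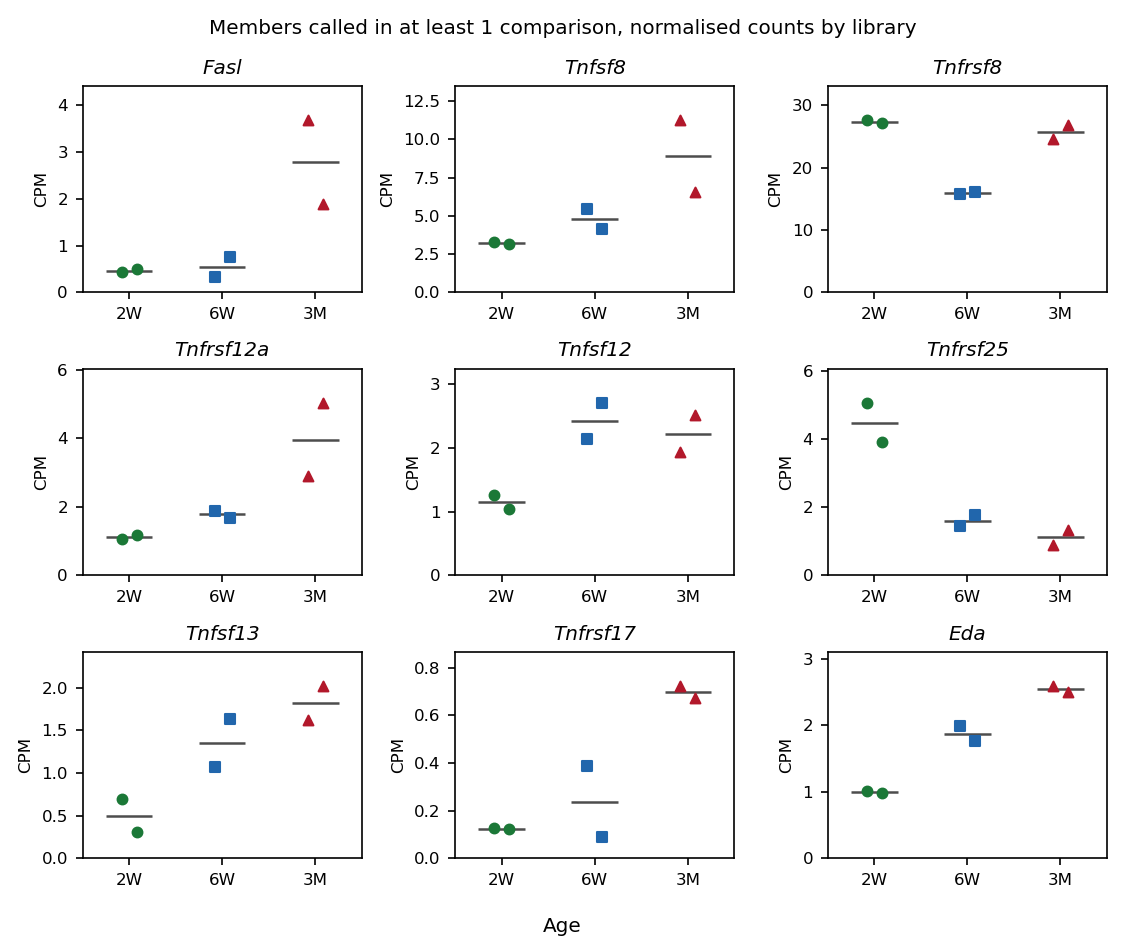
CPM (y axis, from 0) by age for the 9 members called in at least 1 comparison. Each point is a library and the bar is the mean of 2. Fasl and Tnfrsf12a are highest at 3M, Tnfrsf25 is highest at 2W, and Tnfrsf8 is lowest at 6W.

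Tnfrsf25 (DR3), a death domain receptor that T cells and innate lymphoid cells carry and that binds TL1A (Tnfsf15), was the only member that edgeR called lower from 2W to 3M. It had 5.06 and 3.92 CPM at 2W, 1.45 and 1.77 at 6W, and 0.902 and 1.34 at 3M. Both 2W libraries were above all later ones, and the 6W and 3M libraries did not overlap. The receptor was 2.78-fold lower at 6W than at 2W (log2 -1.48 ± 0.34, edgeR adjusted p = 0.0914, past the study's threshold) and 3.95-fold lower at 3M than at 2W (-1.98 ± 0.35, adjusted p = 0.0196). DESeq2 called both, with log2 fold changes of -1.47 and -1.99 and DESeq2 adjusted p-values of 0.0466 and 0.00142. Both differences stayed past the study's threshold in every alternative tried, but the adjusted p of 3M against 2W was under 0.05 in 8 of 13, and over 0.05 without any 1 of the 2W or 6W libraries (up to 0.0949) and without assembled transcripts. Its ligand Tnfsf15 stood at 0.822 to 1.61 CPM with all ages overlapping. The other death domain receptors Tnfrsf21 (DR6) and Ngfr had log2 fold changes of 0.39 ± 0.12 and 0.45 ± 0.37 from 2W to 3M and were not called.

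TWEAK (Tnfsf12) and its receptor Fn14 (Tnfrsf12a), known from tissue repair, were both called. Tnfsf12 had 1.26 and 1.04 CPM at 2W, 2.13 and 2.69 at 6W and 1.92 and 2.51 at 3M. It was 2.09-fold higher at 6W than at 2W (log2 1.06 ± 0.35, edgeR adjusted p = 0.187) and differed by log2 -0.12 ± 0.33 from then to 3M. Fn14 had 1.07 and 1.16 CPM at 2W, 1.89 and 1.68 at 6W, and 2.89 and 5.02 at 3M. Its ages do not overlap. The difference from 2W to 6W was log2 0.67 ± 0.38 and was not called. It was 3.53-fold higher at 3M than at 2W (log2 1.82 ± 0.38, edgeR adjusted p = 0.0299) and 2.22-fold higher than at 6W (1.15 ± 0.36, adjusted p = 0.270). Whether the steps of ligand and receptor differ was not tested. The adjusted p of Fn14 from 2W to 3M was under 0.05 in 5 of 13 alternatives. It was over 0.05 without any 1 library other than 3M replicate 1 (up to 0.129), with a replicate block (0.0611), without assembled transcripts (0.0583) and in a fit of the 4 libraries (0.0659). The Tnfsf12 call was lost without 2W replicate 2 (log2 0.96) and 6W replicate 2 (0.88). That of Fn14 from 6W to 3M was lost without 6W replicate 1 (1.24), 6W replicate 2 (1.07) and 3M replicate 2 (0.64).

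Eda, the ectodysplasin ligand of skin appendages, had 1.01 and 0.981 CPM at 2W, 1.99 and 1.77 at 6W and 2.59 and 2.51 at 3M. It was 2.55-fold higher at 3M than at 2W (log2 1.35 ± 0.32, edgeR adjusted p = 0.0460). This call rests on the joining of spellings: 29 of the 43 counts of 3M replicate 1 were in an assembled transcript under the symbol EDA, which held 0 in the other libraries. With symbols as spelled the log2 fold change was 0.76, and without assembled transcripts 1.82, neither of them called. The adjusted p was under 0.05 in 2 of 13 alternatives, and over 0.05 in DESeq2 (0.0759) and without any 1 library (0.0888 to 0.154). Of its receptors, Edar and Eda2r had log2 fold changes of 0.63 ± 0.29 and 1.32 ± 0.59 over the same span, and both were higher in both 3M libraries than at 2W, but not called. Tnfrsf19 (TROY), a receptor of epithelial and neural cells, had 2.40 and 3.74, 3.68 and 2.43, and 5.83 and 5.02 CPM (3M against 2W log2 0.82 ± 0.33, edgeR adjusted p = 0.173).

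The B cell survival group had mean FPKM of at most 0.842 apart from Tnfrsf13b. APRIL (Tnfsf13) had 0.696 and 0.307 CPM at 2W, 1.07 and 1.63 at 6W and 1.62 and 2.02 at 3M. The 2W libraries were below all others, and the gene passed the study's threshold from 2W to 6W (log2 1.42 ± 0.52) and to 3M (1.85 ± 0.52), with edgeR adjusted p-values of 0.222 and 0.0713. The first call was lost without 2W replicate 2 (0.98) or 6W replicate 2 (1.08), with a replicate block (1.41) and in DESeq2 (1.44), and the second without 2W replicate 2 (1.39). Without 2W replicate 1 the log2 fold changes were 2.12 and 2.55. Tnfsf13 and Tnfsf12 are neighbours on chromosome 11, and Tnfsfm13 is a readthrough gene that joins them. How shared reads were divided among the 3 is uncertain. Tnfsfm13 itself had 0.885 to 1.72 CPM and was not called. Myeloid cells are a known source of APRIL, BAFF and TWEAK, and the 11 listed myeloid genes summed to 189 to 236 CPM at 2W, 407 to 434 at 6W and 391 to 519 at 3M, with 7 of the 11 higher at 3M than at 2W by adjusted p (7.92% of all genes) and none at 0 in any library. Their part in these values was not tested.

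Tnfrsf17 (BCMA), the plasma cell receptor of APRIL and BAFF, had 2 counts in each 2W library, which is 0.126 and 0.123 CPM. It had 0.388 and 0.0883 CPM at 6W and 0.722 and 0.672 at 3M. The ratio of 3M to 2W was 5.57, with an exact 95% interval of 1.94 to 21.9 that covers counting error only, from 27 and 4 counts. Its call (fitted log2 2.42 ± 0.84, edgeR adjusted p = 0.12) was lost without any 1 of the 2W or 3M libraries (log2 2.40 to 2.44) and in DESeq2 (2.47). BAFF (Tnfsf13b) had 0.696 and 1.78, 1.60 and 1.85, and 3.01 and 1.08 CPM, with overlapping ages.

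Tnfrsf13b had 42.4 and 53.8 CPM at 2W, 48.7 and 40.6 at 6W and 32.8 and 34.1 at 3M. The 3M libraries were the lowest, with a log2 fold change from 2W of -0.52 ± 0.16 that edgeR did not call (adjusted p = 0.0848) and DESeq2 did (-0.53, adjusted p = 0.0465). The assembled transcript TCONS_00015546 held 96.7% of these counts. Without it the gene kept 27 and 0, 26 and 26, and 52 and 26 counts, and the fitted direction turned (log2 1.34 from 2W to 3M). The 7 listed B cell and plasma cell genes summed to 55.5 to 67.2 CPM at 2W, 66.0 to 88.3 at 6W and 65.8 to 80.9 at 3M, and Jchain, a plasma cell gene, was at 0 in 2W replicate 2 and 6W replicate 2. Mzb1, the other plasma cell gene of the list, was highest at 2W, at 11.3 and 12.3 CPM, then 4.99 and 5.30, and 7.70 and 5.55. From 2W to 6W it passed the study's threshold as lower (log2 -1.20 ± 0.21) and the B cell gene Cd79a as higher (1.14 ± 0.30).

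TNF, lymphotoxin and their receptors gave no call. Ltb had 57.6 and 42.0 CPM at 2W, 73.5 and 77.8 at 6W and 46.1 and 61.0 at 3M. Both 6W libraries were the highest, and the differences of 0.60 ± 0.19 and -0.50 ± 0.19 had edgeR adjusted p-values of 0.183 and 0.326. Lta, which pairs with Ltb, had 1.26 and 1.96, 1.84 and 1.68, and 1.14 and 1.39 CPM, and Tnf, their neighbour on chromosome 17, stood at 3.86 to 5.77 CPM. LIGHT (Tnfsf14), a further ligand of the lymphotoxin beta receptor, had 5.75 and 4.23, 6.06 and 6.89, and 5.65 and 6.81 CPM.

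The lymphotoxin beta receptor (Ltbr) had 12.8 and 13.1 CPM at 2W, 14.7 and 13.9 at 6W and 14.3 and 15.6 at 3M, both later ages above 2W, and was not called. The assembled TCONS_00102393 held 57.3% of its counts. The annotated ENSMUST00000032489 had 67 and 58 counts at 2W, 146 and 203 at 6W and 58 and 160 at 3M, which was not called either (6W against 2W log2 1.09 ± 0.47, edgeR adjusted p = 0.673). Without assembled transcripts, Ltbr passed the study's threshold from 2W to 6W (log2 1.03). Tnfrsf1a had 92.4 and 86.2, 94.7 and 93.6, and 99.3 and 110 CPM. Tnfrsf1b was lower at 2W, at 46.5 and 37.6 CPM, than at 6W (60.4 and 61.9) and 3M (53.0 and 69.3), but its differences of 0.54 ± 0.17 in both comparisons with 2W were not called (edgeR adjusted p = 0.171 and 0.0936). The second was called without 3M replicate 1 (log2 0.75, edgeR adjusted p = 0.0313) and was 0.30 without 3M replicate 2. Tnfrsf14 had 80.0 and 86.8, 97.6 and 83.3, and 109 and 97.7 CPM, most of it in assembled transcripts under the capital spelling TNFRSF14 (1135 to 2003 counts per library, against 70 to 201 under Tnfrsf14).

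The ligands and receptors of the medullary epithelium showed no call at any step. RANKL (Tnfsf11) had 3.35 and 6.38 CPM at 2W, 6.35 and 6.40 at 6W and 6.31 and 4.26 at 3M, with the 2W libraries spanning nearly the whole range. RANK (Tnfrsf11a) had 20.8 and 17.5, 25.2 and 23.4, and 22.2 and 26.5 CPM (6W against 2W log2 0.34 ± 0.15, edgeR adjusted p = 0.281). Both of its later ages lay above 2W.

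Osteoprotegerin (Tnfrsf11b), the soluble decoy of RANKL, was highest in both 6W libraries, with 4.81 and 5.33, 7.03 and 7.02, and 4.93 and 3.99 CPM (3M against 6W log2 -0.66 ± 0.21, edgeR adjusted p = 0.273). Cd40lg had 10.4 and 9.75, 8.92 and 9.97, and 9.62 and 10.2 CPM, and Cd40, on epithelium, dendritic cells and B cells, had 12.6 and 9.87, 10.1 and 12.2, and 9.56 and 11.2 CPM. All ages overlap for both. The 8 medullary epithelial markers summed to 159.7 to 228 CPM at 2W, 339 to 363 at 6W and 269.8 to 395 at 3M. Most of this sum was in Krt5 and Ccl21a. By the study's threshold 2 of the 8 were higher at 6W than at 2W (4.46% of all genes), Ccl21a and Trpm5, and none of the 8 was called by adjusted p in any comparison. Cldn4 had 20.3 and 26.7, 17.8 and 17.3, and 11.6 and 17.2 CPM (3M against 2W log2 -0.70 ± 0.22, edgeR adjusted p = 0.100). Aire, the gene that RANK and CD40 signals help to induce, was at 6.64 to 8.69 CPM throughout.

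**Figure D4:**
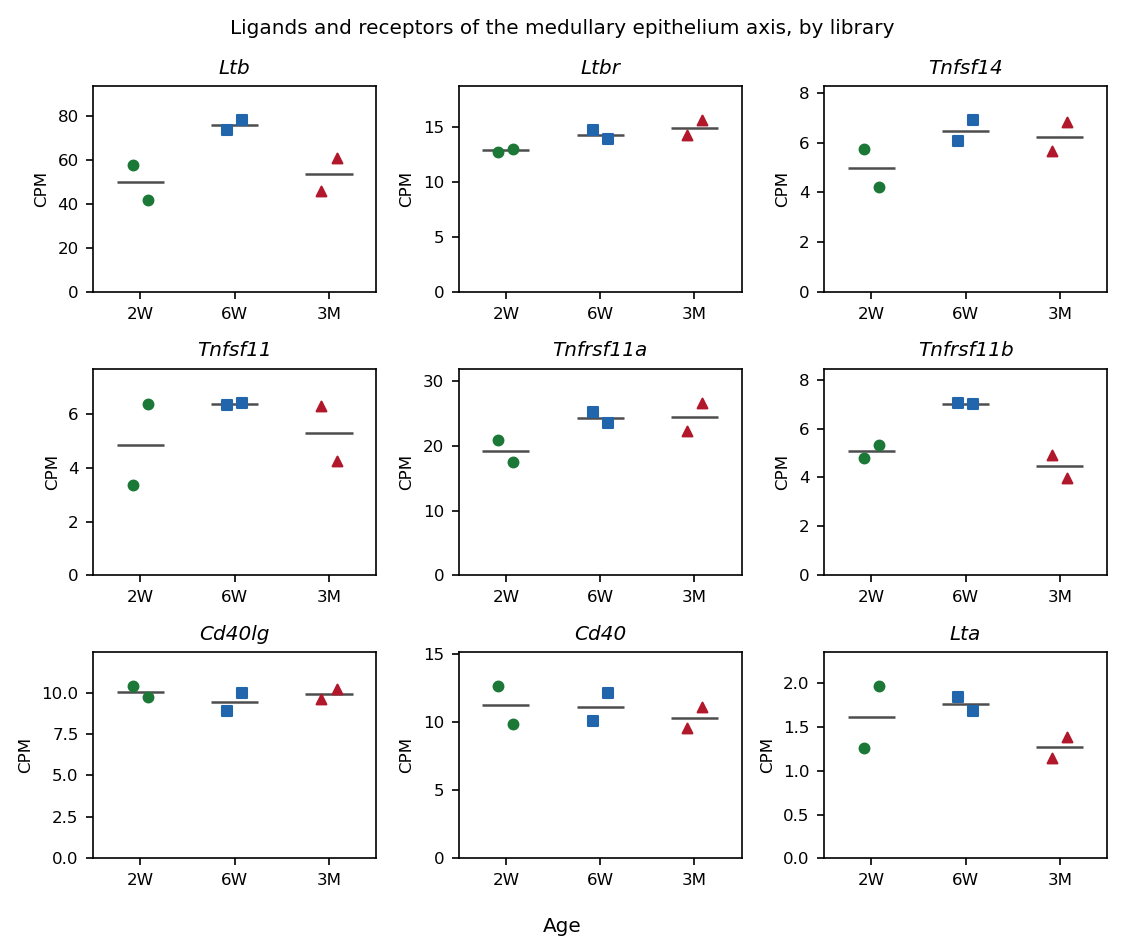
CPM (y axis, from 0) by age for 9 ligands and receptors that act on medullary epithelium. Each point is a library and the bar is the mean of 2. Ltb and Tnfrsf11b are highest at 6W, without passing a threshold, and Cd40lg and Cd40 overlap at all ages.

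Single transcripts were tested as well. Of the 135 member transcripts 80 passed the filter, and 23 members had at least 2 of them. None had an adjusted p under 0.05 (lowest 0.197 in edgeR), and 0% of all 35036 transcripts tested did in each comparison. Before adjustment 5, 4 and 10 had a p under 0.05 (7.66%, 6.9% and 11% of all transcripts), and 1, 2 and 5 passed the study's threshold in 6W against 2W, 3M against 6W and 3M against 2W, where 4.25%, 3.33% and 6.06% of all transcripts did. A BAFF transcript, ENSMUST00000033892, had 2 and 1 counts at 2W, 17 and 16 at 6W and 31 and 10 at 3M, although the sum over the gene was not called. For Fn14, ENSMUST00000167059 had 0 and 1, 0 and 1, and 25 and 15 counts (3M against 6W log2 5.20 ± 1.94, edgeR adjusted p = 0.721). This transcript passed the filter on low counts only through the 3M libraries where it was high, and the BAFF transcript only through 6W and 3M libraries. In Tnfrsf14, the assembled TCONS_00087831 had 144 and 147, 331 and 302, and 409 and 385 counts (3M against 2W log2 1.23 ± 0.24), whereas the gene sum had 0.31 ± 0.13.

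The 37 listed signalling genes downstream of these receptors passed the study's threshold in none of the 3 comparisons, in edgeR or DESeq2, and their median log2 fold changes were 0.03, 0.01 and 0.01. By adjusted p, edgeR called 1 from 2W to 6W, 0 from 6W to 3M and 1 from 2W to 3M, against 1.74%, 0.00675% and 11% of all genes. DESeq2 called 2, 0 and 4, against 6.03%, 2.5% and 14.8% of the genes with an adjusted p in it. Before adjustment, 7, 2 and 7 had a p under 0.05 in edgeR, against 18.8%, 14.3% and 27.3% of all genes. Traf1, an adaptor that NF-kB itself induces, had 24.4 and 21.5 CPM at 2W, 37.7 and 40.7 at 6W and 28.4 and 30.8 at 3M (6W against 2W log2 0.77 ± 0.12, edgeR adjusted p = 0.0423). Rel, the c-Rel subunit of NF-kB, had 58.9 and 72.0, 81.9 and 75.6, and 107.5 and 91.5 CPM (3M against 2W log2 0.60 ± 0.15, edgeR adjusted p = 0.0467).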

How the data were processed

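RNA of whole thymus, depleted of ribosomal RNA, was sequenced strand-specifically in 6 libraries, grouped by the age in their labels. Per the file headers, the authors deposited for each of 77525 mRNA transcripts an estimated count, 84.1% of the values above 0 being not whole, and FPKM. The program behind them is not given in the sources used here. The submitters' processing notes name Bowtie 0.12.2 and mm8, with no role. Some transcripts were assembled by the authors (identifiers starting TCONS). For circRNAs, the authors deposited whole junction counts and RPM, used only for circRNAs of members. The lncRNA and miRNA tables were not used.

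Estimated counts were rounded and summed by symbol, joining 665 genes over case. The 372 transcripts without a symbol (0.699% to 1.20% of counts) were left out. Genes were filtered with filterByExpr and fitted over all 6 libraries with edgeR 4.0.16 (TMM, quasi-likelihood F test, age as the only term) in R 4.3.3, with Benjamini-Hochberg adjustment over the 14806 genes of a comparison. Standard errors come from the log2 fold change and its F statistic, and CPM uses the TMM-scaled library size. Alternatives were DESeq2 1.42.0, scaling by total counts alone, no filter on low counts, a replicate block, symbols as spelled, no assembled transcripts, a fit of the 4 libraries compared and each library left out. The fit was tested on simulated data.

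Values are given in full for members called in any comparison, the 4 ligands and 6 receptors with the highest mean FPKM, the medullary epithelium group, and Fas, Fasl, Tnfsf10 and Tnfrsf10b. Members and lists were chosen with earlier results of these data known. A count of 0 in a library allows up to 3 counts, and intervals and this limit cover counting error only.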

Additional observations from a re-analysis of the deposited data

Results flagged for a closer look

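Only 1 circRNA came from a member, outside the comparisons made here. It is novel_circ_004373 from exons of Tnfrsf1b, the second TNF receptor (chromosome 4, minus strand, 145224252 to 145225482 as deposited, 480 bases spliced). Its junction count was 4 in 6W replicate 1, above the 3 counts that a count of 0 allows, 2 in 2W replicate 2 and 0 in the other 4 libraries. With 0 in 6W replicate 2 and in both 3M libraries, no difference between ages was detectable at this depth.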

How the results depend on the processing

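Calls of Fasl, Tnfsf8, Tnfrsf12a and Tnfrsf25 from 2W to 3M, of Fasl from 6W to 3M and of Tnfrsf25 from 2W to 6W stayed past the study's threshold in every alternative. Of 34 member log2 fold changes checked, 2 reversed: without assembled transcripts, Tnfrsf13b was 0.84 from 6W to 3M and 1.34 from 2W to 3M, when 0 to 52 counts per library remain. Members past the study's threshold with 1 library left out numbered 1 to 4 (6W against 2W), 1 to 4 (3M against 6W) and 6 to 8 (3M against 2W), beside 641 to 969, 221 to 664 and 1328 to 1494 of all genes. Further members passed it only with a change of setting. From 2W to 6W these were Tnfrsf18 without 2W replicate 1 (log2 1.03) and Ltbr without assembled transcripts (1.03). From 6W to 3M they were Tnfsf8 (1.09), Tnfrsf19 (1.16) and Tnfrsf17 (2.89) without 6W replicate 1, and Tnfsf8 (1.17) and Tnfrsf4 (-1.38) without 3M replicate 2. From 2W to 3M they were Tnfsf12 without 3M replicate 1 (1.14) or with total counts (1.02), Tnfrsf19 without 2W replicate 2 (1.18), Tnfrsf4 without 3M replicate 2 (-1.17), and Eda2r without 2W replicate 2 (1.93), 3M replicate 2 (1.70) or the filter (1.29).

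Adjusted p was the less stable rule. From 2W to 6W, 1 member was called, against 2 in DESeq2, 0 without assembled transcripts and 0 to 1 with a library left out. From 6W to 3M, DESeq2 called 1 and the other fits 0. From 2W to 3M, 5 members were called, 5 in DESeq2 (Tnfrsf13b in place of Eda), 5 with total counts, 5 without the filter, 3 with symbols as spelled (Tnfsf8, Tnfrsf12a and Tnfrsf25), 0 without assembled transcripts, 1 in a fit of the 4 libraries (Tnfrsf25), and 0 to 3 with a library left out. The count was 0 without either 2W or either 6W library, and 3 without either 3M library (Tnfrsf12a, Tnfrsf25 and Tnfrsf1b without replicate 1, and Fasl, Tnfsf8 and Tnfrsf25 without replicate 2), when 244 to 578 and 1358 to 1729 of all genes were called. From 2W to 6W, 0 to 2 of all genes were called without a 2W or 6W library and 615 to 653 without a 3M library, and from 6W to 3M 0 to 11. Why was not tested. Over all genes, adjusted p called 258, 1 and 1634 in the 3 comparisons, 876, 349 and 2198 in DESeq2, 411, 1 and 1782 with total counts, 465, 18 and 1840 without the filter, 128, 0 and 1438 with symbols as spelled, 4, 0 and 913 without assembled transcripts, and 664, 0 and 662 in fits of 4 libraries.

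Replicate numbers do not pair the libraries: the deviations of libraries with the same number correlated at -0.06 (2W and 6W), -0.18 (2W and 3M) and 0.35 (6W and 3M). With a replicate block, 2, 2 and 7 members passed the study's threshold and 0, 0 and 2 (Tnfsf8 and Tnfrsf25) had an adjusted p under 0.05 (5, 0 and 744 genes in all).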
